A study of Mus musculus with 48 samples.

Results

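The 10 genes described here are used by the neurons that make serotonin, noradrenaline and dopamine, though not by them alone. They are Tph2, Slc6a4, Fev, Gata2, Gata3, Slc18a2, Ddc, Th, Dbh and Maob, 10 of the 24444 genes measured, and they were read by symbol in all 48 samples. They were chosen by values of these data, since Tph2 and Slc6a4 had been seen to be lower in HET than in WT cortex at E14.5. The E14.5 genotype comparison is therefore given as a description, with no test. Each sample was the dissected cerebral cortex of a single hemisphere from a male C57BL/6J mouse, analysed by RNA-seq at embryonic day 14.5 (E14.5) or at 1, 6 or 12 months of age (1mo, 6mo, 12mo). WT mice carried 2 intact copies of Chd8, which encodes a chromatin remodeler. Their HET littermates were Chd8 V986*/+, with a stop codon placed in 1 copy by CRISPR/Cas9. The line came from 1 founder male crossed back to C57BL/6J. There were 6 mice per genotype at each age, and the study asked how losing 1 copy of Chd8 changes cortical gene expression from the embryo to the older adult.

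Values are given on the VST scale (variance-stabilised values, in log2 units), on which a difference of 1 is close to a 2-fold change in well expressed genes and understates the change of genes near the floor. The floor, the value of a gene with no reads, was 2.14 for most genes and between 1.97 and 2.32 for the members that reached it, where it differed between replicates 1 to 3 and replicates 4 to 6. The deposited values hold no counts, and the read depths that the study lists for each library were not used here. The scale does not take account of transcript length, so levels are compared between samples and not between genes. Chd8 itself was lower in all 6 HET than in all 6 WT samples at every age, with mean differences of -0.63 at E14.5, -0.67 at 1mo, -0.64 at 6mo and -0.54 at 12mo, so no sample went against its genotype label. The cortical factors Emx1 and Tbr1 were well expressed in every E14.5 sample. The lowest values were 8.95 for Emx1 in WT embryo 2 and 12.02 for Tbr1 in WT embryo 5.

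Monoamine neurons have their cell bodies mainly in the brainstem, and send long axons to the cortex. Serotonin neurons convert tryptophan with tryptophan hydroxylase (Tph2) and Ddc, take serotonin back up with the transporter Slc6a4, and depend on the ETS-family factor Fev (Pet-1) together with Gata2 and Gata3. Catecholamine neurons use tyrosine hydroxylase (Th) and Ddc to make dopamine, and Dbh to turn dopamine into noradrenaline. Both kinds load their vesicles with Slc18a2 (VMAT2), and Maob breaks monoamines down. Gata2 and Gata3 are also used by inhibitory neurons of the midbrain, and Th by dopamine neurons of the olfactory bulb.

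The DNA just before the transcription starts of Tph2, Slc6a4, Fev and Dbh is shown because these members rose and fell together among the E14.5 embryos. The sequences are RefSeq promoter sequences of GRCm38.p6, 250 bases long, written 5′ to 3′ on the strand of the gene. Capitals mark the letters GATAA or TTATC, a form of the core read by GATA factors.
Tph2 (chr10:115185023-115185272, minus strand): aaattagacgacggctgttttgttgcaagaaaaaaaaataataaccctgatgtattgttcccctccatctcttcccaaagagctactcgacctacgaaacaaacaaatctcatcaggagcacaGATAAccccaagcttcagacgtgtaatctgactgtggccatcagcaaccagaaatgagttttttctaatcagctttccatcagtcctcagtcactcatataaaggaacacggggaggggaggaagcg
Slc6a4 (chr11:76998347-76998596, plus strand): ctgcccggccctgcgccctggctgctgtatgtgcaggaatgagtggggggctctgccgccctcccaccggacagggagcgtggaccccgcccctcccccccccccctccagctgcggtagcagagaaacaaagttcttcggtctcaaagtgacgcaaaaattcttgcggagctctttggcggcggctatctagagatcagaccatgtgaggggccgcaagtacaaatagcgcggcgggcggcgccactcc
Fev (chr1:74885409-74885658, minus strand): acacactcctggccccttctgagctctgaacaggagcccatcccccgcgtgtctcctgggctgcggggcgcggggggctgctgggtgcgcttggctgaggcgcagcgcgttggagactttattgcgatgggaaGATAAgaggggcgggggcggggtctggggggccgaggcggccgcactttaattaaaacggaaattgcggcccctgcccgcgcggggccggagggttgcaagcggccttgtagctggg
Dbh (chr2:27165257-27165506, plus strand): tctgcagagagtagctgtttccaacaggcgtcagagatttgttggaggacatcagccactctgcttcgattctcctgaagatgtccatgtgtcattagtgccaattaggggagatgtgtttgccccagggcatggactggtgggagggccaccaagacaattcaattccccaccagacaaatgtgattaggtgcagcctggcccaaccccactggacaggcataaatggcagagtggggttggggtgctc
Tph2 and Fev each held 1 GATAA, beginning 127 bases and 117 bases before the start. Neither GATAA nor TTATC was found in the windows of Slc6a4 and Dbh. Other forms of the GATA core were not searched, so their absence is not shown. Over the 300 bases searched, from 250 before to 50 after each start and on both strands, 25.4% of 32851 promoters held GATAA, and Slc18a2 was the other member with a match. The letters GGAAGT, a form of the site read by ETS factors, were present in 23.8% of the promoters. They were found in none of the 9 members that had an entry, and shorter or other ETS forms were not searched. A match is a run of letters and not a measured binding site. In mm9, the build the reads were aligned to, Tph2 spans chr10:114515697-114622078 on the minus strand, Slc6a4 spans chr11:76812105-76845842 on the plus strand, Fev spans chr1:74928083-74931993 on the minus strand and Dbh spans chr2:27020753-27038720 on the plus strand.

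**Figure D1:**
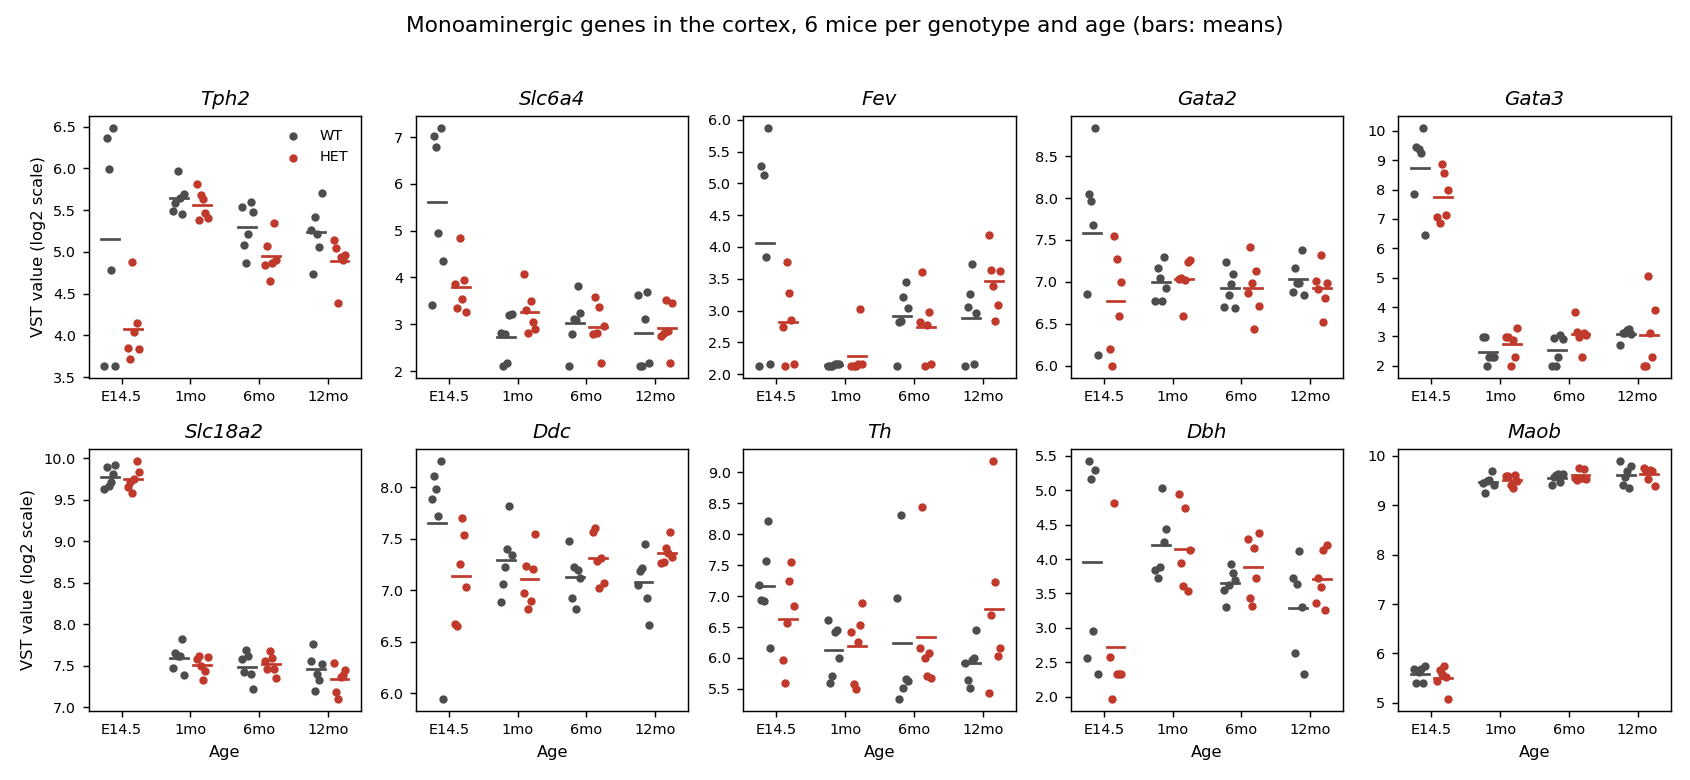
VST values (log2 scale) of the 10 members in each mouse, by age and genotype; points are mice and bars are the means of 6. At E14.5 WT embryos 2, 3 and 5 lie far above every HET embryo for Tph2, Slc6a4 and Fev while the other WT embryos lie in or near the HET range, and from 1mo on the genotypes overlap for all members.

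At E14.5 the serotonin genes were lower on average in HET cortex, and the WT embryos differed widely among themselves. Tph2 was 3.64, 6.37, 6.00, 4.78, 6.48 and 3.64 in WT embryos 1 to 6. It was 3.85, 3.72, 4.88, 4.04, 4.14 and 3.84 in HET embryos 1 to 6. WT embryos 2, 3 and 5 were higher than every HET embryo, whereas WT embryos 1 and 6 were lower than every HET embryo. The group means were 5.15 ± 1.32 (SD, n = 6) in WT and 4.08 ± 0.42 (SD, n = 6) in HET, a difference of -1.07.

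The serotonin transporter Slc6a4 followed the same embryos. It was 3.42, 7.02, 6.80, 4.95, 7.19 and 4.35 in WT and 3.85, 3.35, 4.84, 3.54, 3.94 and 3.26 in HET. WT embryos 2, 3 and 5 stood at 6.80 or more, and no HET embryo exceeded 4.84. The mean difference was -1.83, the largest of the 10. Fev was at its floor in WT embryos 1 and 6 and in HET embryos 2 and 6, so the gene that switches on the serotonin program had no reads in 4 of the 12 cortices. In the other WT embryos it was 5.27, 5.13, 3.85 and 5.87, and the highest HET value was 3.76, in embryo 3. The mean of Fev was 4.07 ± 1.63 (SD, n = 6) in WT and 2.82 ± 0.64 (SD, n = 6) in HET.

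Gata2 and Gata3 were present in all 12 embryos. Gata2 was 6.85, 8.05, 7.97, 7.68, 8.84 and 6.13 in WT and 6.20, 6.00, 7.54, 7.28, 6.59 and 7.0 in HET. Gata3 was 7.86, 9.43, 9.39, 9.24, 10.10 and 6.44 in WT and 7.06, 6.87, 8.87, 8.57, 7.12 and 7.98 in HET. For both genes WT embryo 5 was the highest of all and WT embryos 2, 3 and 4 came next, above every HET embryo. Their mean differences were -0.82 and -1.0.

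Among the catecholamine genes, Dbh had the pattern of the serotonin genes. It was 2.57, 5.42, 5.17, 2.95, 5.29 and 2.32 in WT and 2.58, 1.97, 4.81, 2.32, 2.32 and 2.32 in HET, where HET embryo 3 stood far above the other 5. Th ranged from 6.16 to 8.21 in WT with a median of 7.06, and from 5.59 to 7.55 in HET with a median of 6.70. Ddc ranged from 5.94 to 8.25 in WT with a median of 7.94 and from 6.66 to 7.70 in HET with a median of 7.14. For Ddc, 5 of the 6 WT embryos exceeded every HET embryo, and WT embryo 6, at 5.94, was below them all.

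Slc18a2 and Maob behaved differently from the rest. Slc18a2, the vesicle transporter, was 9.78 ± 0.12 (SD, n = 6) in WT and 9.75 ± 0.13 (SD, n = 6) in HET, the tightest of the members at this age. Maob was 5.59 ± 0.15 (SD, n = 6) in WT and 5.51 ± 0.23 (SD, n = 6) in HET. All 10 means were lower in HET, as were 49.6% of the 16877 genes that passed the filter on low values. Tph2 and Slc6a4 were chosen for being lower, so this count is not a result about the members. Fev and Dbh also moved with Tph2 among the embryos (r = 0.978 and 0.92, as deviations from the genotype mean). For Slc18a2 and Maob the differences were -0.02 and -0.08. The genotypes overlapped for every member. Over the 16877 genes, 0.0889% had all HET below all WT embryos and 0.172% had all HET above, and none of the 10 members was among them. In bulk tissue the number of cells expressing these genes, their RNA per cell and the make-up of the dissected tissue cannot be told apart.

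The embryos with high serotonin genes also had high midbrain genes. The list of midbrain and isthmus factors (En1, En2, Pax2, Pax5, Pax7 and 11 others, none of them a member) had a mean VST value of 8.47, 8.24 and 8.81 in WT embryos 2, 3 and 5. It was 6.49, 7.86 and 5.23 in WT embryos 1, 4 and 6 and from 5.66 to 7.68 in HET embryos. In the HET group embryo 3 was the highest for Tph2, Slc6a4, Fev, Gata2, Gata3 and Dbh as well as for this list. En1, a homeobox factor of the midbrain and first hindbrain segment, was 9.07 in WT embryo 5 and 2.82 in WT embryo 6. In HET embryos 15 of the 16 factors were lower on average, with a median difference of -0.94.

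**Figure D2:**
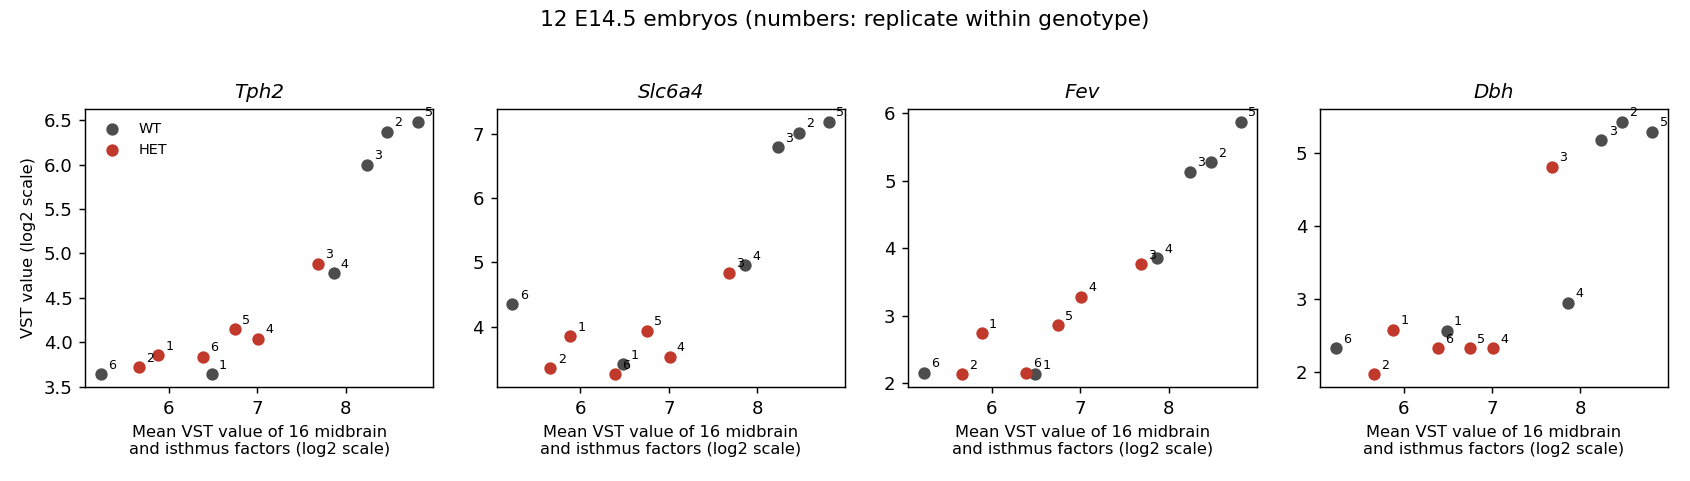
VST values (log2 scale) of Tph2, Slc6a4, Fev and Dbh against the mean VST value of 16 midbrain and isthmus factors, 1 point per E14.5 embryo (6 WT, 6 HET), numbered by replicate. WT embryos 2, 3 and 5 lie at 8.24 or more on the horizontal axis and highest on the vertical axis, with WT 4 and HET 3 next along the midbrain axis.

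To ask whether members and regional markers moved together without the genotype difference, each value was taken as a deviation from its genotype mean. For each list 10 relations were tested by permutation within genotype. The adjustment ran over all 10, Tph2 and Slc6a4 included, so the adjusted p of the other members depended on them too. The hindbrain and spinal Hox genes were the main list, and the midbrain and peripheral lists were alternatives to it. With the Hox genes no member passed an adjusted p below 0.05. The lowest r was -0.37 for Maob and the highest 0.54 for Gata2, and the permutation test gave an unadjusted p below 0.05 for none of the 10 with Pearson's r and for 1, Maob, with rho. The mean of the 30 Hox genes was 3.80 in WT embryo 5 and between 2.27 and 2.56 in the other 11. Hoxb3, for example, was 8.41 in WT embryo 5 and at most 3.82 elsewhere.

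With the midbrain and isthmus list, 6 of the 8 members other than Tph2 and Slc6a4 passed for Pearson's r and 5 of 8 for Spearman's rho. The share of all genes that would pass was not computed, so the counts do not show anything particular to the members. Gata2 had r = 0.96 (adjusted p = 0.00015 by permutation, n = 12) and rho = 0.95 (adjusted p = 5e-05 by permutation), with r = 0.93 once the 2 embryos farthest from the median of the list were left out. The relation had r = 0.98 within WT and r = 0.92 within HET. Gata3 had r = 0.96, Fev r = 0.92, Ddc r = 0.85, Dbh r = 0.83 and Th r = 0.64, and the last did not pass for rho (0.48). For Slc18a2 and Maob r was -0.14 and -0.29, with adjusted p of 0.67 and 0.36 by permutation. The E14.5 values of Tph2 and Slc6a4 chose the genes, so their r of 0.90 and 0.80 are given as descriptions.

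The list of peripheral ganglion genes gave 4 of the 8 members for r, including Fev (r = 0.90) and Dbh (r = 0.80), again without a share of all genes. Its mean was 7.76 in WT embryo 5, between 4.56 and 6.10 in the other WT embryos and between 4.52 and 5.65 in HET embryos. The cerebral cortex list went the other way, with a mean of 11.43, 11.48 and 11.23 in WT embryos 2, 3 and 5 against 11.64 to 12.08 in HET embryos. The part of these marker genes in the lower Tph2 and Slc6a4 of HET embryos was not tested.

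Leaving out WT embryos 2, 3 and 5, a step chosen after seeing the data that removes embryos of 1 genotype only, moved the HET minus WT difference of Tph2 from -1.07 to 0.06. Fev went from -1.25 to 0.11, Dbh from -1.23 to 0.11 and Slc6a4 from -1.83 to -0.44. Gata2 and Gata3 went from -0.82 to -0.12 and from -1.0 to -0.10, and Ddc from -0.51 to -0.04. Th stood at -0.34 and Maob at -0.19 without these embryos. These 3 embryos held the highest values of Tph2, Slc6a4, Fev and Dbh, so leaving them out had to make the differences of these genes smaller in size, and nothing is read from it.

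Over the 12 embryos, 2 members were among the 5 genes most like Tph2. They were Fev (r = 0.978) and Slc6a4 (r = 0.974), ranked 1 and 4 of 16876 genes, again as deviations from the genotype mean. The others were Skor2 (r = 0.977), which encodes a transcriptional corepressor, Chrna5 (r = 0.974), a nicotinic receptor subunit, and Greb1l (r = 0.971). Dbh was ranked 38 (r = 0.92), Gata2 213 and Gata3 428. Slc18a2, with r = 0.00, and Maob, with r = -0.39, did not share the pattern. These correlations are descriptions of 12 embryos that share the same wide spread.

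The other genes of the pathway at E14.5 are given as counts. Of the noradrenaline neuron genes, 8 of 9 were lower on average in HET, with a median difference of -1.17. The noradrenaline transporter Slc6a2 was 6.87, 6.57 and 6.71 in WT embryos 2, 3 and 5 and 6.04 in HET embryo 3, and at most 3.27 in the other 8. Of the other serotonin neuron genes 11 of 16 were lower, with a median of -0.29, and of the dopamine neuron genes 10 of 13, with a median of -0.12. The serotonin receptors (6 of 14 lower, median 0.05) and the dopamine and adrenergic receptors (6 of 14 lower, median 0.03), which cortical cells themselves express, were close to the 0.00 of all genes.

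After birth the question was whether a genotype difference in these genes was present at 1mo, 6mo or 12mo. No member passed the test at any age (limma, Benjamini-Hochberg adjusted p below 0.1 over all genes tested). At 1mo, 8 members were tested and 0 passed, against 0.139% of all genes. At 6mo and 12mo, 10 were tested and 0 passed, against 0.0927% and 0.0463%. At an unadjusted p below 0.05 the limma test gave 0 members at 1mo, 1 at 6mo (Tph2) and 1 at 12mo (Ddc), where 8.8%, 7.59% and 11.6% of all genes had such a p. The genotypes overlapped for every member at each postnatal age, where all HET lay below all WT mice for 0.441%, 0.301% and 0.497% of all genes and above them for 0.383%, 0.226% and 0.37%. Fev and Gata3 were under the filter at 1mo, since Fev was at its floor in all 6 WT and 5 of 6 HET mice.

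**Figure D3:**
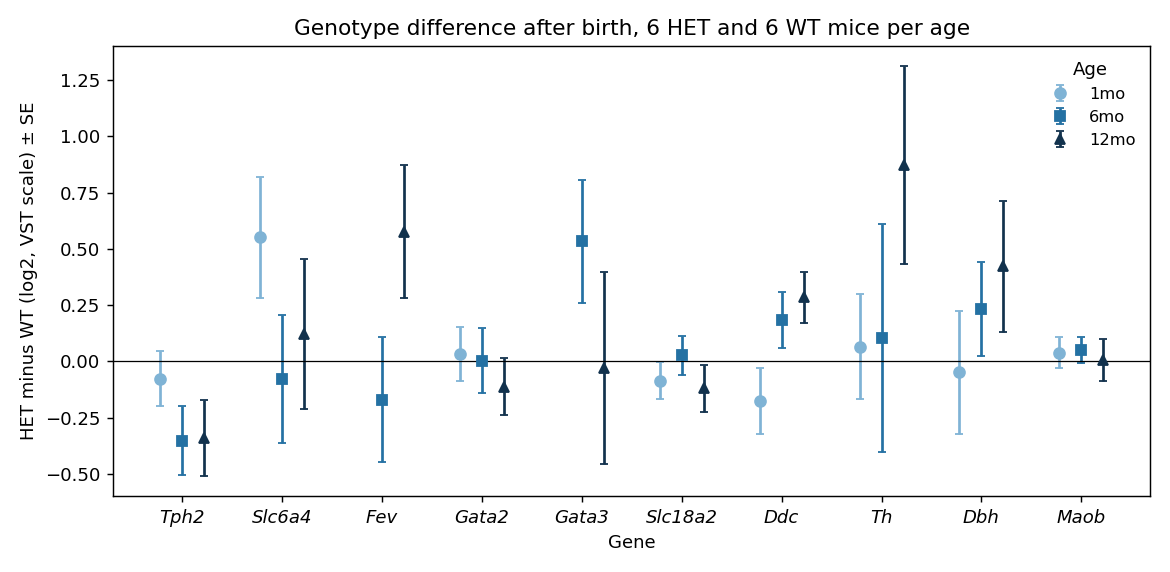
HET minus WT difference of each member at 1mo, 6mo and 12mo (log2 units on the VST scale), with bars of 1 SE from limma; each point compares 6 HET with 6 WT mice, and Fev and Gata3 have no point at 1mo because they were under the filter. Tph2 lies below 0 at all 3 ages, from -0.08 at 1mo to -0.35 at 6mo, and no difference passed an adjusted p below 0.1.

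Tph2 transcript was found in every postnatal cortex. At 1mo it was 5.49, 5.58, 5.97, 5.65, 5.45 and 5.70 in WT and 5.82, 5.38, 5.69, 5.63, 5.47 and 5.40 in HET, and the genotypes overlapped. At 6mo it was 5.53, 5.09, 4.87, 5.22, 5.60 and 5.48 in WT and 4.85, 5.07, 4.65, 4.87, 5.35 and 4.90 in HET. The 3 lowest HET mice were below every WT mouse. The 6mo difference was -0.35 ± 0.15 (SE; limma adjusted p = 0.62). At 12mo it was 5.26, 4.73, 5.42, 5.22, 5.06 and 5.71 in WT and 5.14, 5.04, 4.39, 4.94, 4.90 and 4.96 in HET, where all 6 HET mice lay below the WT mean. The difference was -0.34 ± 0.17 (SE; limma adjusted p = 0.45). The genotype difference did not pass a test of change between ages (6mo minus 1mo, -0.27 ± 0.21 (SE), limma adjusted p = 1.0).

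Slc6a4, Fev and Gata3 were near their floors after birth, and Gata2 was not. Slc6a4 at 1mo was 2.82, 2.11, 2.80, 2.17, 3.19 and 3.22 in WT and 4.08, 3.31, 2.81, 3.49, 3.04 and 2.90 in HET. The 3 highest HET mice exceeded every WT mouse, and 2 WT values were the floor. The difference was 0.55 ± 0.27 (SE; limma adjusted p = 0.58), in the direction opposite to E14.5. It was -0.08 at 6mo and 0.12 at 12mo. Fev at 12mo was 2.13, 3.06, 3.26, 3.73, 2.16 and 2.96 in WT and 4.20, 3.64, 3.39, 2.83, 3.09 and 3.62 in HET, a difference of 0.58 ± 0.29 (SE; limma adjusted p = 0.46). Gata3 ranged from 2.0 to 3.30 at 1mo, from 2.0 to 3.83 at 6mo and from 2.0 to 5.07 at 12mo, with both ends of the 12mo range in HET mice. Gata2 kept to 6.44 to 7.42 over the 36 postnatal mice, and its genotype differences were 0.03, 0.00 and -0.11 at 1mo, 6mo and 12mo.

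Among the genotype tests within an age, Ddc at 12mo gave the smallest unadjusted p of any member. At 12mo it was 7.05, 7.19, 7.22, 7.45, 6.92 and 6.67 in WT and 7.26, 7.27, 7.41, 7.37, 7.57 and 7.32 in HET, and 5 WT mice were below all 6 HET mice. The difference was 0.28 ± 0.11 (SE; limma adjusted p = 0.36). At 1mo the difference of Ddc was -0.18 ± 0.15 (SE), and the change from 1mo to 12mo was 0.46 ± 0.19 (SE; limma adjusted p = 0.31). That was the single member contrast with an unadjusted p below 0.05 among the tests of change between ages, in which 0 members passed. All genes passed in 0% of cases for 6mo minus 1mo, 0.0406% for 12mo minus 6mo and 0.0695% for 12mo minus 1mo, and had an unadjusted p below 0.05 in 3.88%, 10.2% and 13.1%.

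Dbh differed by -0.05 at 1mo, 0.23 at 6mo and 0.42 at 12mo, with SEs of 0.27, 0.21 and 0.29. At 12mo its WT values ran from 2.32 to 4.11 with a median of 3.47 and its HET values from 3.25 to 4.20 with a median of 3.66. Slc18a2 differed by -0.09, 0.03 and -0.12, and Maob by 0.04, 0.05 and 0.01, with SEs from 0.06 to 0.10. These differences were small beside those of the genes with larger spread, and none had an unadjusted p below 0.05.

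Th stood out after birth through 3 mice. It was 8.31 in WT mouse 3 at 6mo, 8.44 in HET mouse 2 at 6mo and 9.18 in HET mouse 3 at 12mo, and between 5.34 and 7.23 in the other 33 postnatal mice. The same 3 mice had the highest means of the 10 olfactory bulb genes, from 8.70 to 9.27 against 6.37 to 8.09 in the others. Doc2g, a marker of bulb projection neurons, was 8.99 to 9.95 in the 3 mice and at most 8.12 in the rest. Tbx21, restricted to the same neurons in brain, was 5.90 to 6.75 against at most 4.97. The dopamine transporter Slc6a3 was 4.68 to 5.59 in these mice, and the others ran up to 4.84 with a median of 3.75, so the ranges overlapped. Gata3 did not follow the same order, at 5.07 in HET mouse 3 at 12mo, its highest postnatal value, 3.16 in HET mouse 2 and its floor of 2.0 in WT mouse 3 at 6mo.

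**Figure D4:**
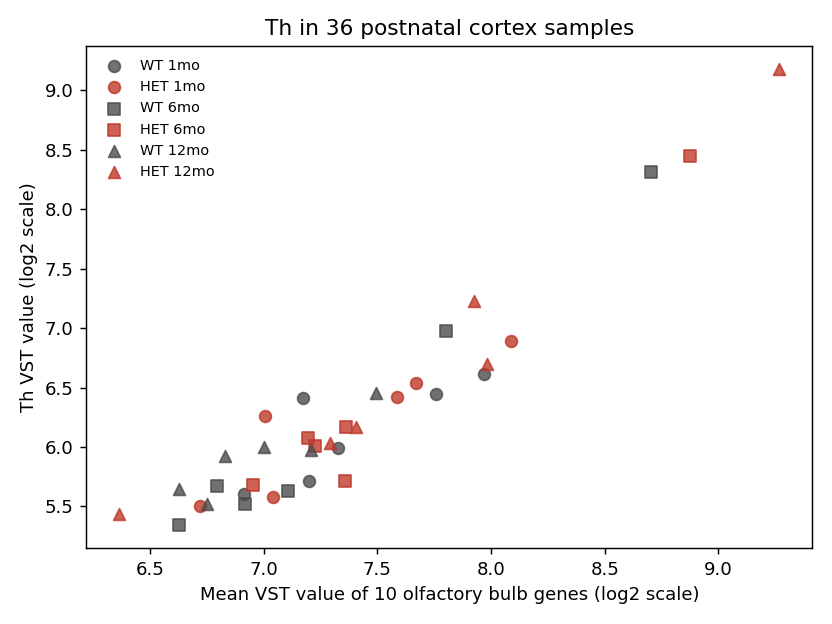
VST value of Th against the mean VST value of 10 olfactory bulb genes (both log2 scale), 1 point per postnatal mouse, coloured by genotype and shaped by age. The 3 mice with Th above 8 lie at 8.70 or more on the horizontal axis, and the remaining 33 rise together from 5.34 to 7.23.

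Over the 33 other mice Th still rose with the olfactory bulb mean (Pearson's r = 0.90, Spearman's rho = 0.86, permutation p = 1e-05 for each, the smallest 100000 permutations can give). Values were deviations from the mean of genotype and age, taken over all 6 mice of a group, the 3 high mice included. The Th mean of HET at 12mo, for example, was 6.79 with HET mouse 3 and 6.31 without it. The correlations over the 33 are therefore not free of the 3 high mice. Without the 2 mice farthest from the median r was 0.87. This relation was chosen after the values were seen. The genes most like Th over all 36 postnatal mice were Dlx1 (r = 0.957), a factor of forebrain inhibitory neurons, Lgr5 (r = 0.941), a receptor of the Wnt pathway, Shisa3 (r = 0.929), Sp8 (r = 0.918), a factor of bulb interneurons that is itself in the list, and Nmb (r = 0.918), which encodes neuromedin B. No other member came near, the highest being Gata3 (r = 0.32).

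At 12mo Th was 5.92, 5.64, 5.52, 5.97, 6.00 and 6.45 in WT and 5.44, 6.70, 9.18, 7.23, 6.03 and 6.16 in HET. The difference was 0.87 ± 0.44 (SE; limma adjusted p = 0.45), and without HET mouse 3 it was 0.39. The olfactory bulb genes were higher in HET at 12mo by a median of 0.70, and 7 of 10 had an unadjusted limma p below 0.05, against 11.6% of all genes, but 0 passed the adjusted threshold. At 6mo, with 1 such mouse in each genotype, the difference of Th was 0.11 with them and 0.10 without them. The part of the bulb genes in the values of Th was not tested by a fit that includes them.

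With age the members went in several directions, and the step from E14.5 to 1mo was large for many genes of the cortex. In WT, 6 of the 8 members tested passed between E14.5 and 1mo, against 85.5% of all genes, so the count is not a result about the members. Tph2 and Slc6a4 were left out of these tests because their E14.5 values chose the part. Their WT means went from 5.15 to 5.64 and from 5.62 to 2.72. In HET the means of Tph2 were 4.08 and 5.56, and those of Slc6a4 were 3.80 and 3.27.

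Gata3 fell by 6.27 ± 0.39 (SE; limma adjusted p = 2.7e-14) in WT and by 5.0 ± 0.43 (SE; limma adjusted p = 1.9e-11) in HET, from well expressed to near its floor. The mean of the midbrain and isthmus list, with which Gata3, Gata2 and Fev moved at E14.5, went from 7.52 to 3.18 in WT. In HET that mean went from 6.56 to 3.09. The part of the midbrain genes in the age steps of the members was not tested. Slc18a2 fell by 2.18 ± 0.09 in WT and 2.24 ± 0.08 in HET (SE). Maob rose by 3.88 ± 0.09 in WT and 4.0 ± 0.09 in HET (SE), each with 6 mice per age. Over the same step the mean of the astrocyte list went from 8.78 to 12.88 in WT and from 8.73 to 12.86 in HET. The part of astrocyte genes in the rise of Maob was not tested. Fev fell by 1.93 ± 0.47 (SE; limma adjusted p = 0.00055) in WT. In HET it fell by 0.53 ± 0.29 (SE; limma adjusted p = 0.087), a call that ended in 8 of the fits with 1 mouse left out, those without E14.5 mouse 3, 4 or 5 or 1mo mouse 1, 2, 3, 4 or 6 (limma adjusted p from 0.115 to 0.256). With the replicate number as a block the call of Fev in HET ended too (limma adjusted p = 0.11). Th fell by 1.03 ± 0.38 (SE; limma adjusted p = 0.014) in WT and differed by -0.43 ± 0.49 (SE; limma adjusted p = 0.42) in HET.

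In HET, 5 of 8 members passed, and 4 with the replicate block, against 86.5% of all genes. Dbh rose by 1.43 ± 0.35 (SE; limma adjusted p = 0.00059) in HET, from 2.72 to 4.15, and differed by 0.25 ± 0.45 (SE; limma adjusted p = 0.62) in WT, where the E14.5 embryos ran from 2.32 to 5.42. Gata2 fell by 0.59 ± 0.27 (SE; limma adjusted p = 0.043) in WT and differed by 0.26 ± 0.21 (SE; limma adjusted p = 0.23) in HET. The WT call of Gata2 ended without E14.5 mouse 2 (limma adjusted p = 0.10) or 5 (limma adjusted p = 0.17), and Gata2 passed in HET, with a rise of 0.42, without E14.5 mouse 3. Ddc differed by -0.36 and -0.03, and passed in WT, with a fall of 0.70, when E14.5 mouse 6 was left out. The difference between the genotypes in these age steps was not tested.

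Between 1mo and 6mo, 0 of 10 members passed in WT, against 14.8% of all genes, and none had an unadjusted limma p below 0.05 (23.6% of all genes did). The fit pooled the spread of all 24 WT samples. At E14.5 the WT SDs of Tph2, Slc6a4, Fev, Gata3 and Dbh lay between 1.32 and 1.63. The WT counts for the later ages therefore do not show that these members were stable. Fev differed by 0.77 ± 0.47 (SE), and was at its floor in all 6 WT mice at 1mo and in 1 of 6 at 6mo. In HET 1 of 10 passed, against 21.8%. That gene was Tph2, which fell by 0.62 ± 0.17 (SE; limma adjusted p = 0.013) from 5.56 ± 0.18 to 4.95 ± 0.24 (SD, n = 6). The ranges came close, with 5.35 in the highest HET mouse at 6mo and 5.38 in the lowest at 1mo. In WT Tph2 went from 5.64 to 5.30, a difference of -0.34 ± 0.36 (SE; limma adjusted p = 0.62), where the SE includes the wide spread of the E14.5 WT embryos. Between 6mo and 12mo no member passed in WT (0.0115% of all genes) or in HET (1.88%), and at an unadjusted limma p below 0.05 there were 0 in WT, against 7.4% of all genes, and 2 in HET, against 13.3%. The 2 were Fev (0.72) and Slc18a2 (-0.18). Tph2 means at 12mo were 5.23 in WT and 4.89 in HET.

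The wider pathway after birth was described with lists of other genes. None of the genes in the 15 lists passed for genotype at 1mo, 6mo or 12mo. At an unadjusted limma p below 0.05 the counts for the other serotonin neuron genes were 2 of 15, 0 of 14 and 3 of 13, and those for the serotonin receptors were 0 of 13, 2 of 13 and 3 of 13, beside 8.8%, 7.59% and 11.6% of all genes. Between E14.5 and 1mo the receptors moved together: 13 of 13 tested serotonin receptors rose in WT and 12 of 13 in HET, and 12 and 11 of 14 dopamine and adrenergic receptors rose, while 43.9% of all genes rose in WT and 44.5% in HET. Htr2a, the main excitatory serotonin receptor of cortical pyramidal cells, rose by 3.46 in both genotypes, and Adra1d, an alpha-1 adrenergic receptor, by 6.67 in WT and 6.61 in HET. Of the dopamine neuron genes 9 of 13 fell and 3 rose in WT and 8 fell and 3 rose in HET, and of the noradrenaline neuron genes 7 of 9 fell in WT and 4 of 7 in HET with 1 rising in each, while 41.7% of all genes fell in WT and 42.1% in HET. The other serotonin neuron genes were split, with 7 of 16 rising and 7 falling in WT. The developmental factor Foxa1 fell by 5.34 and 5.35 and Lmx1a by 4.61 and 4.53 in WT and HET, and Tfap2b by 5.59 and 4.73. Foxa1 and Lmx1a are also in the midbrain and isthmus list. Of the cofactor and breakdown enzymes, 7 rose and 6 fell in WT and 8 rose and 4 fell in HET, with Qdpr, which recycles the cofactor of Tph2 and Th, rising by 1.76 and 1.79. From 1mo to 6mo Qdpr rose again, by 0.43 in WT and 0.38 in HET.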

How the data were processed

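Polyadenylated RNA of 48 cortices was sequenced as paired reads. The labels name a TruSeq kit and the study's methods a stranded KAPA kit. The authors filtered and trimmed reads, aligned them to mm9 with STAR 2.5.2b, quantified transcripts with Salmon 0.11.3 and used DESeq2 with a batch term. The deposited log2 values are variance-stabilised (VST) values of 24444 genes. For every gene the mean of replicates 1 to 3 equals that of replicates 4 to 6, so the authors removed a difference between these sets before deposit, and the floor of some genes differs between them. What the sets are is not given in the sources used here.

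No count test was possible on such values. Genes were tested with limma 3.58.1 (R 4.3.3, intensity trend) where their mean was at least 0.5 above the floor of 2.1433. Genotypes were compared within each postnatal age (12 mice), neighbouring ages within each genotype (24 mice) and differences between postnatal ages over 36 mice, with Benjamini-Hochberg adjustment over all genes tested and a threshold of 0.1. The same code was tested on simulated data. Correlations at E14.5 used deviations from the genotype mean and 100000 permutations within genotype, two-sided. The members, the other 15 lists and the tests were chosen with earlier results of these data known. All 10 members were named, with Chd8 as the check of the labels, at most 3 genes per other list by size of difference, markers of the regions compared, and the 5 genes most like Tph2 or Th. Promoters came from the RefSeq table of GRCm38.p6. Each sample was a separate mouse, and same-numbered samples were not taken to pair. Alternatives were another filter, no filter, no trend, quantile normalization, 1 fit of all samples, a replicate block, a threshold of 0.05 and leaving out each mouse.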

Additional observations from a re-analysis of the deposited data

Results flagged for a closer look

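In 80 groups of 6 mice (10 members, 8 groups each), 8 held a mouse separated from its group by more than the critical value of Dixon's test, where chance gives about 1 in 20, or 4. At E14.5, HET embryo 3 was high for Tph2, at 4.88 against 3.72 to 4.14 in the other 5, and for Dbh, at 4.81 against 1.97 to 2.58. WT embryo 6 was low for Ddc, at 5.94 against 7.72 to 8.25. After birth, HET mouse 2 at 6mo was high for Th, at 8.44 against 5.68 to 6.17, and had the highest olfactory bulb mean of its group. HET mouse 3 at 12mo, the mouse with the highest Th, was low for Tph2, at 4.39 against 4.90 to 5.14. HET mouse 5 at 1mo had a Fev value of 3.03 where the other 5 were at the floor, between 2.13 and 2.16. HET mouse 3 at 1mo was low for Gata2, at 6.59 against 7.02 to 7.26, and WT mouse 1 at 12mo was low for Gata3, at 2.70 against 3.09 to 3.27.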

How the results depend on the processing

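The absence of member calls for genotype after birth held in every alternative run. Leaving out 1 mouse turned the direction of a genotype difference within an age or of a difference from E14.5 to 1mo in 48 fits, and of a difference between the later ages in 44, all of differences that had not passed. At 1mo the differences ranged from -0.011 to 0.12 for Gata2, -0.072 to 0.20 for Th, -0.21 to 0.12 for Dbh and -0.0074 to 0.083 for Maob. At 6mo they ranged from -0.26 to 0.077 for Slc6a4, -0.10 to 0.10 for Gata2, -0.029 to 0.067 for Slc18a2 and -0.31 to 0.52 for Th. At 12mo they ranged from -0.016 to 0.30 for Slc6a4, -0.43 to 0.18 for Gata3 and -0.047 to 0.061 for Maob. From E14.5 to 1mo they ranged from -0.081 to 0.54 for Dbh in WT and from -0.13 to 0.083 for Ddc in HET. Gata3 at 12mo turned to 0.049 under quantile normalization, and Gata2 at 6mo to -0.11 without the mice with high olfactory bulb genes. The cause was not tested. Members called from E14.5 to 1mo numbered 5 to 7 in WT and 4 to 5 in HET with 1 mouse left out, and 3 in HET with the filter at 1.5 above the floor, where Fev and Dbh were no longer tested. Of the 8 members other than Tph2 and Slc6a4, 0 passed for r with the Hox genes, the main marker list. With the midbrain list 6 passed, and with the peripheral list 4, and the share of all genes was computed for none of these lists. The r of Slc18a2 turned to -0.141 and -0.138 with the midbrain and peripheral lists.

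With the replicate block, Fev in HET no longer passed from E14.5 to 1mo (limma adjusted p = 0.11), which left 4 members called, and no other member call changed. Same-numbered WT and HET samples deviated together little (mean r from -0.03 to 0.23 per age), but at E14.5 r reached 0.56 and was over 0.1 in 4 of 6 numbers. It was not over 0.1 for every number at any age, so the numbers were not taken to pair the mice.

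The calls over all genes moved more. For genotype they were 24 at 1mo, 16 at 6mo and 8 at 12mo, and 13, 30 and 2 with the replicate block, 37, 16 and 520 in 1 fit of all 48 samples and 15, 5 and 3 at an adjusted p below 0.05. With 1 mouse left out they ranged from 3 to 32, 5 to 21 and 2 to 251. At 6mo they were 4 without a trend. Without the mice with high olfactory bulb genes they were 2 at 6mo and 2 at 12mo. From 6mo to 12mo they were 325 in HET, from 97 to 723 with 1 mouse left out and 153 at the stricter threshold, and 2 in WT, from 0 to 4. Near the floor a value of Slc6a4, Fev, Gata3 or Dbh rests on few or no reads.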
